A study of Mus musculus with 6 samples.

Results

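The canalicular ABC transporter genes Abcb11, Abcb4, Abcc2, Abcg5, Abcg8, Abcg2, Abcb1a and Abcb1b and the flippase gene Atp8b1 form a set of 9 genes, out of 22180 measured, whose products work at the membrane where hepatocytes export into bile. They were taken by gene symbol for that role, and each had 1 probe set carrying its own symbol and none that it shared with another gene. Primary hepatocytes from wild type adult male C57Bl/6 mice were kept in William's medium without serum. One group received GW4064, which activates FXR, the nuclear receptor for bile acids encoded by Nr1h4, at 2 µM for 4 h, and the other received the solvent DMSO. RNA of each group was measured on 3 one-colour Affymetrix arrays, numbered 1 to 3 in both groups, and the series names 3 separate hepatocyte preparations without saying which array came from which or how many mice went into each.

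Bile forms when hepatocytes pump solutes across the canalicular membrane. The ABC exporters use ATP to move bile salts, phospholipid, sterols, conjugated anions and drugs into the canaliculus, and water follows. Bile salts are detergents, so phosphatidylcholine exported beside them and a flippase that keeps the membrane lipids ordered protect the cell. FXR, paired with the retinoid receptor RXR, binds inverted repeats in DNA and is known to activate the bile salt and phospholipid exporter genes, which empties the hepatocyte of the same bile salts that activate it.

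Values are the deposited log2 intensities, with array medians within 0.053 of each other. Hepatocyte markers stood between 8.51 for Serpinc1 and 12.8 for Alb as means over 6 arrays (9 of 10 listed genes measured). Their summed linear intensity was 27754 to 29412 with GW4064, against 29435 to 30380 with DMSO. Kupffer cell and macrophage markers summed to 428 to 1058 with GW4064 and to 457 to 1117 with DMSO (8 of 8 measured), with Cd68 the highest at 9.41 and Vsig4 the lowest at 2.76. Cholangiocyte markers summed to 248.7 to 347 with GW4064 and to 203 to 258 with DMSO (5 of 7 measured, 4 of them higher with GW4064), with Sox9 the highest at 7.54 and Cftr the lowest at 2.19. Endothelial markers summed to 207 to 288 with GW4064 and to 216 to 284 with DMSO (7 of 7 measured). Stellate cell and fibroblast markers, all 7 measured and all with changes above 0 (0.03 to 0.16 on the log2 scale), summed to 92.3 to 98.3 with GW4064 and to 87.3 to 93.6 with DMSO. Lymphocyte markers summed to 46.8 to 49.8 with GW4064 and to 48.4 to 52.4 with DMSO (4 of 5 measured). Slc4a1, the 1 measured red cell marker of 3, lay at 4.16. No marker of any list passed limma's threshold, with or without the replicate block, against 1 hepatocyte and 1 cholangiocyte marker higher at an unadjusted p under 0.05, namely Hnf4a and Sox9. At that level 2.60% of all genes were higher without the replicate block and 4.01% with it. With the replicate block Serpinc1 and the endothelial marker Pecam1 were also higher at that level. Their part in the results below was not tested, and in RNA from whole cultures fewer cells of a type cannot be told apart from less RNA per cell.

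GW4064 raised 2 of the 9 genes, the bile salt export pump gene Abcb11 and the phosphatidylcholine floppase gene Abcb4, by limma with p adjusted over all genes, a test that called 0.0496% of all genes raised. With the replicate number as a block, which called 0.0721% raised, 3 passed, the added gene being Abcb1a, which encodes a P-glycoprotein. All 9 mean changes were above 0, and their median was 0.30 on the log2 scale, against -0.02 over all genes. No member was lowered by either fit, where limma called 0% of all genes lowered, and 0.00902% with the replicate block. At an unadjusted p under 0.05 no member was lower, where 3.06% of all genes were, and 5.12% with the block. None was lower with GW4064 in all 3 same-numbered pairs. The remaining 6 genes, those of the sterol, conjugate and drug exporters and of the flippase, had mean changes of 1.05-fold to 1.38-fold and did not pass.

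At an unadjusted p under 0.05, where 2.60% of all genes were higher, 6 members were higher, namely Abcb11, Abcb4, Abcb1a, Abcg5, Abcg8 and Abcc2. In the same 6 members the 3 GW4064 arrays lay above the 3 DMSO arrays without overlap, as they did in 4.58% of all genes. All 3 GW4064 arrays lay below the DMSO arrays in 6.19% of all genes and in none of the members. With the replicate block 7 members were higher at an unadjusted p under 0.05, Abcb1b being the added one, where 4.01% of all genes were. These counts describe the 9 genes and are no test of the set.

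**Figure D1:**
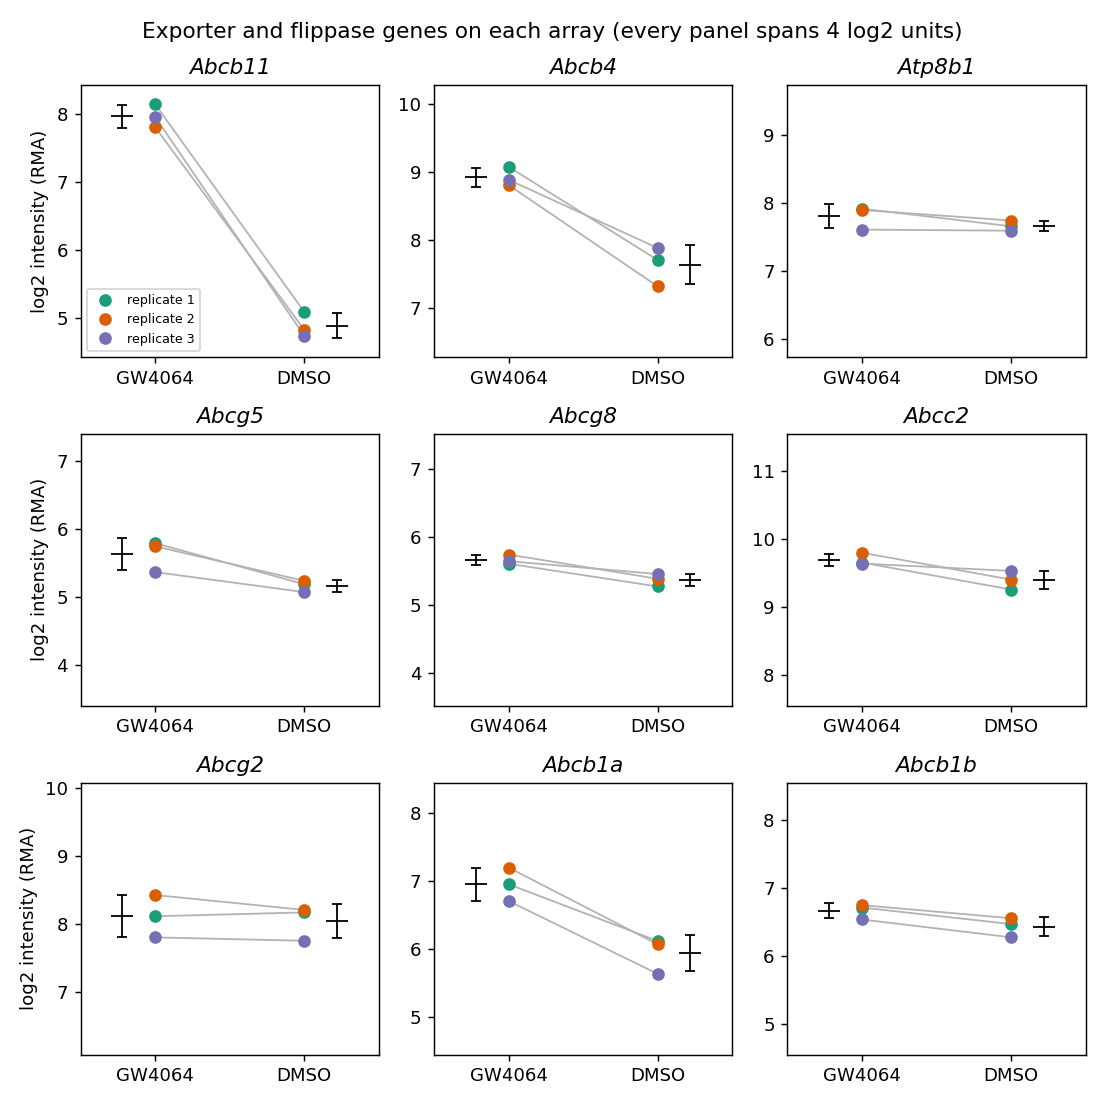
Log2 intensity (y axis) of the 9 genes on each array, GW4064 left and DMSO right. Points are arrays coloured by replicate number, grey lines join arrays of the same number, and black marks give mean ± SD (n = 3). Every panel spans 4 log2 units. Abcb11, Abcb4 and Abcb1a show wide gaps between the groups, and Abcg2, Abcb1b and Atp8b1 overlap.

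Abcb11 (probe set 17386177) encodes BSEP, the pump that carries conjugated bile salts into bile and sets the pace of bile-salt-driven flow. It stood at 8.14, 7.81 and 7.96 on the GW4064 arrays, against 5.09, 4.83 and 4.74 on the DMSO arrays (log2 intensity, replicates 1 to 3). The lowest GW4064 array was 2.71 above the highest DMSO array. Mean levels were 7.97 ± 0.17 with GW4064 and 4.88 ± 0.18 with DMSO (SD, n = 3 each), so GW4064 raised it 8.47-fold (95% interval 6.94 to 10.4, limma adjusted p = 3.70e-05). Of all 22180 genes it had the largest mean rise and the smallest p. The same-numbered pairs gave folds between 7.88 and 9.31, so the size of the rise varied little from one replicate number to the next.

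The start of Abcb11 is shown because it holds a close match to the inverted repeat that FXR and RXR bind. The motif searched was the inverted repeat IR-1, AGGTCANTGACCT, read on both strands (it is its own reverse complement), in windows that run from 250 bases before to 50 bases after a RefSeq gene start (build GRCm38.p6). The best match in Abcb11 was AGGCCATTGACCT, from base -63 to base -51 relative to the start. It differs from the motif by T4C, with positions counted from 1 at the motif's 5′ end. The 250 bases before the start lie at chr2:69342617-69342866 on the minus strand, with the match in capitals.

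Abcb11: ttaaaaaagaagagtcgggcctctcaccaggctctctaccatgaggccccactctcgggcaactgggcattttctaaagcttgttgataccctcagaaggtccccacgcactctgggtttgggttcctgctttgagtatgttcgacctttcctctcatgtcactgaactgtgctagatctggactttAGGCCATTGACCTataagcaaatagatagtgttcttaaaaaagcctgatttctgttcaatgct

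A match with at most 1 mismatch occurred in 27 of 32851 windows of the promoter table (0.0822%). These 27 windows belong to 27 genes, of which 16 were measured here. Abcb11 was the only 1 of the 16 that limma called, 9 of the 16 had changes above 0, and the median change of the other 15 was 0.03. Windows of 8 of the 9 exporter and flippase genes are reported, 11 in all. Atp8b1 was left out, and whether it has a close match is not reported here. Outside Abcb11 their best IR-1 matches had 3 mismatches (Abcb1b and 1 of the 3 windows of Abcg2, a level that 11.4% of all windows reach), 4 (Abcb4, Abcc2 and 1 of the windows of Abcg8, reached by 56.4%) or 5 (reached by 98.1%). A match of letters does not show binding, and a window without one says nothing of sites outside it.

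A pair of further motifs built from the same 6-base unit was searched, on both strands, with Atp8b1 again left out. The everted repeat ER-8, TGACCTNNNNNNNNAGGTCA, is known from a rat Abcc2 element. It had a match with 2 mismatches in the Abcb11 window, from base -108 to base -89, as close a match as 1.67% of windows hold. This stretch does not overlap the IR-1 match. The next best ER-8 matches had 3 mismatches, in Abcb1a and in 1 window of Abcg2 (11.8% of windows), and the Abcc2 window had 5. The direct repeat DR-4, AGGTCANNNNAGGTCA, is bound by the sterol receptor LXR with RXR. It had no match with fewer than 4 mismatches in any reported window of the members, and 76.9% of all windows reach that level.

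Abcb4 (probe set 17434585) encodes the canalicular floppase that turns phosphatidylcholine to the outer leaflet, from where bile salts carry it off. It stood at 9.08, 8.81 and 8.89 with GW4064, against 7.71, 7.32 and 7.88 with DMSO (log2 intensity). All GW4064 arrays lay above all DMSO arrays, by at least 0.93. The rise was 2.44-fold (95% interval 1.93 to 3.09, limma adjusted p = 0.0343), and 2.01-fold to 2.81-fold in the same-numbered pairs. Replicate 3 gave the smallest of those folds and had the highest DMSO value. Leaving out any single array except DMSO replicate 3 moved the adjusted p above the threshold, to between 0.0557 and 0.230. Without DMSO replicate 3 it was 0.0405, and the log2 change stayed between 1.13 and 1.41 in these 6 fits.

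Within the same arrays the log2 change of Abcb11 exceeded that of Abcb4 by 1.79, which is 3.47 times on the linear scale. The excess was 1.68, 1.49 and 2.21 in pairs 1, 2 and 3. The exact permutation test of 3 against 3 arrays gave p = 0.1 (two-sided), the smallest it can give. The excess of Abcb11 was thus above 0 in each pair, and pair 3 had the largest.

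Atp8b1 (probe set 17355026) encodes the P4-ATPase that returns phospholipids to the inner leaflet of the canalicular membrane, the opposite direction to the Abcb4 product. It stood at 7.91, 7.90 and 7.61 with GW4064, against 7.66, 7.74 and 7.59 with DMSO (log2 intensity). The groups overlapped, since the lowest GW4064 array lay below the 2 higher DMSO arrays. The change was 1.10-fold with a 95% interval of 0.928 to 1.31 (limma adjusted p = 0.982), so a rise of the size of Abcb4's lies outside that interval. The differences in pairs 1, 2 and 3 were 0.26, 0.16 and 0.02 on the log2 scale. Tmem30a, the CDC50 subunit that carries P4-ATPases to the cell surface, had a difference of 0.03 on the log2 scale (SE 0.09), with 8.60, 8.57 and 8.59 on the GW4064 arrays, against 8.56, 8.51 and 8.60 on the DMSO arrays. For its relative Tmem30b the value was -0.20 (SE 0.15).

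Abcg5 and Abcg8 encode the paired partners of the sterol exporter, which works as a heterodimer and puts cholesterol into bile. Abcg5 (probe set 17347729) stood at 5.79, 5.74 and 5.36 with GW4064, against 5.18, 5.23 and 5.07 with DMSO (log2 intensity). Abcg8 (probe set 17340099) stood at 5.61, 5.74 and 5.64 with GW4064, against 5.27, 5.39 and 5.46 with DMSO. Both genes had all GW4064 arrays above all DMSO arrays, by 0.13 and 0.15, and neither passed over all genes. The change was 1.38-fold for Abcg5 (95% interval 1.13 to 1.69, limma adjusted p = 0.641, 0.255 with the replicate block). For Abcg8 it was 1.23-fold (95% interval 1.05 to 1.42, adjusted p = 0.770, 0.398 with the block). The pairs differed by 0.60, 0.51 and 0.29 on the log2 scale in Abcg5 and by 0.33, 0.36 and 0.19 in Abcg8, so that pair 3 was the smallest in both. The change of Abcg5 exceeded that of Abcg8 by 0.18 on the log2 scale, and by 0.27, 0.15 and 0.11 in the pairs. The exact permutation test of 3 against 3 arrays, which does not use the pairs, gave p = 0.4 (two-sided, where 0.1 is the smallest possible). The excess was 0.07 without GW4064 replicate 1, 0.09 without DMSO replicate 3 and 0.30 without GW4064 replicate 3, so its size rested on single arrays.

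The promoter of this gene pair is shown because the partners start back to back. In RefSeq (GRCm38.p6) Abcg5 starts at 84683011 on the minus strand and Abcg8 at 84683121 on the plus strand of chromosome 17, with 109 bases between the starts, and their windows share 209 bases. RefSeq lists another Abcg8 start at 84676302, whose window shares no base with that of Abcg5. The 250 bases before the Abcg8 start, chr17:84682871-84683120 on the plus strand, cover the start of Abcg5 as well. They hold no IR-1 match with 2 or fewer mismatches, so nothing is in capitals.

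Abcg8: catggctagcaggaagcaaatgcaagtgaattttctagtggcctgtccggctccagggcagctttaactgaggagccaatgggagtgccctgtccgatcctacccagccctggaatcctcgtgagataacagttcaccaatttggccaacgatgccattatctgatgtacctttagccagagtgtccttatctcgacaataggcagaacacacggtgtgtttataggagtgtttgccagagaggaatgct

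Abcc2 (probe set 17359636) encodes MRP2, the exporter of bilirubin glucuronides, glutathione conjugates and other organic anions. It stood at 9.66, 9.80 and 9.64 with GW4064, against 9.26, 9.41 and 9.53 with DMSO (log2 intensity). The groups did not overlap, and the gap was 0.11. The change was 1.23-fold (95% interval 1.04 to 1.45, limma adjusted p = 0.802, 0.443 with the replicate block). Pairs 1 and 2 differed by 0.40 and 0.39 on the log2 scale and pair 3 by 0.11.

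Abcg2 (probe set 17459014) encodes BCRP, which exports sulfate conjugates, urate and drugs. It stood at 8.11, 8.42 and 7.80 with GW4064, against 8.17, 8.20 and 7.75 with DMSO (log2 intensity). The groups overlapped widely, and replicate 3 was the lowest of each group. The change was 1.05-fold with a 95% interval of 0.797 to 1.38 (limma adjusted p = 0.998), and pair 1 was lower with GW4064, by -0.06 on the log2 scale. Abcg2 had the widest spread between replicate numbers of the 9 genes, 0.54 between the means of replicates 2 and 3, more than its mean change of 0.07.

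Abcb1a and Abcb1b encode the rodent P-glycoproteins, drug efflux pumps of the canalicular membrane that share their function and much of their sequence. Abcb1a (probe set 17434524) stood at 6.95, 7.19 and 6.70 with GW4064, against 6.11, 6.07 and 5.63 with DMSO (log2 intensity). All GW4064 arrays lay above all DMSO arrays, by at least 0.59, and replicate 3 was the lowest of each group. The change was 2.02-fold (95% interval 1.56 to 2.60), and 1.78-fold to 2.19-fold in the pairs. limma gave an adjusted p of 0.123, and 0.0374 with the replicate block, where the 95% interval was 1.73 to 2.35. The level of replicate 3 was 0.46 below that of replicate 2 (means of both arrays), a shift that the block takes out of the spread. Fits with the block and without a pair were chosen after seeing the data. There limma's adjusted p was 0.0437, 0.180 and 0.278 without pairs 1, 2 and 3.

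Abcb1b (probe set 17434555) stood at 6.72, 6.75 and 6.54 with GW4064, against 6.47, 6.56 and 6.28 with DMSO (log2 intensity). The groups overlapped by 0.02, while each pair was higher with GW4064, by 0.24, 0.19 and 0.26 on the log2 scale. The change was 1.17-fold (95% interval 0.989 to 1.40, limma adjusted p = 0.918, 0.479 with the replicate block). Within the same arrays the change of Abcb1a exceeded that of Abcb1b by 0.78, and by 0.59, 0.94 and 0.81 in the pairs (exact permutation p = 0.1, two-sided, the smallest possible). Whether probes of one paralog also detect the transcript of the other was not tested.

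Abcb1a, Abcb1b and Abcb4 follow one another on chromosome 5 in the RefSeq gene table, with no protein-coding gene listed between them. Along this cluster the log2 changes were 1.01 for Abcb1a, 0.23 for Abcb1b and 1.29 for Abcb4. The middle gene thus had the smallest of the 3 changes. Promoters of the outer genes are printed as the context of the pair with the larger changes. Neither holds an IR-1 match with 2 or fewer mismatches. The window of Abcb1a is chr5:8566841-8567090 and that of Abcb4 is chr5:8893471-8893720, both on the plus strand, with G and C at 40.4% of bases in Abcb1a and 61.6% in Abcb4.

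Abcb1a: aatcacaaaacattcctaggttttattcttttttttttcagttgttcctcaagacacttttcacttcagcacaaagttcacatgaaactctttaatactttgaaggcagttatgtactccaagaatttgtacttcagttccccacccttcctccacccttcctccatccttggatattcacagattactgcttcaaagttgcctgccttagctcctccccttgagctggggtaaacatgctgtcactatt
Abcb4: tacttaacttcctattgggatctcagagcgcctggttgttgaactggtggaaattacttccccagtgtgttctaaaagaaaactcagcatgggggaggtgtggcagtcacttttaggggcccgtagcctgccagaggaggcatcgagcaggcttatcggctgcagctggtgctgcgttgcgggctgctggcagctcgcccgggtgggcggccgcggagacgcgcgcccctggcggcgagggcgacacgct

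**Figure D2:**
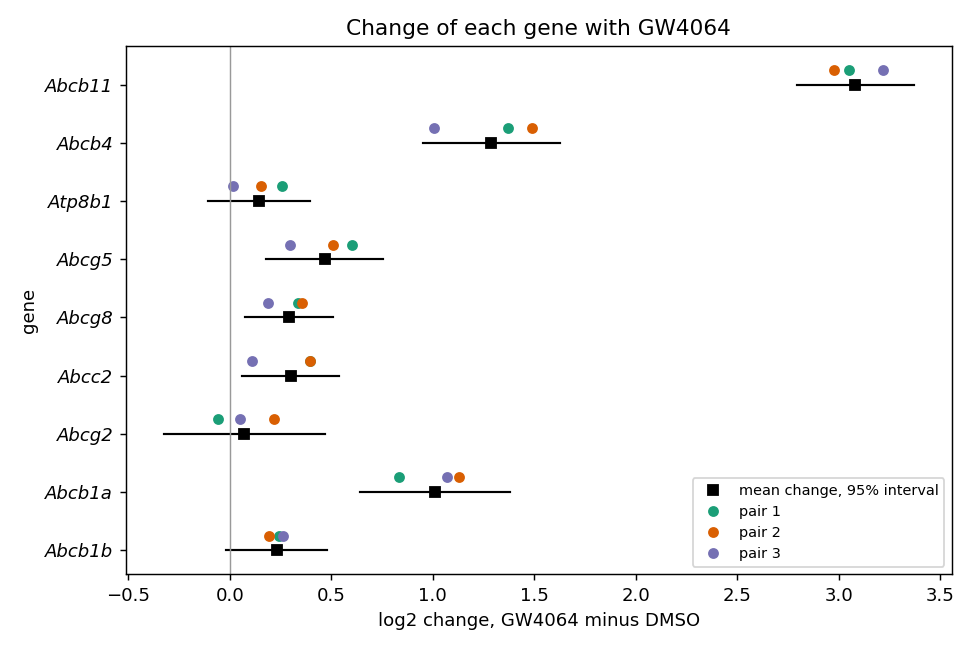
Log2 change, GW4064 minus DMSO (x axis), of the 9 genes. Black squares are mean changes with limma's 95% intervals from the fit without the replicate block, and coloured points are the differences of same-numbered pairs. Abcb11 stands at 3.08, Abcb4 at 1.29 and Abcb1a at 1.01, and the other 6 genes lie between 0.07 and 0.47.

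Genes whose levels moved most like those of the changed exporters were found by the root mean square difference of log2 values, each gene centred on its own mean over the 6 arrays. Nearest to Abcb11 were Nr0b2, the gene of the repressor SHP, at a distance of 0.42, the MYB-family factor gene Mybl1 at 0.59 and Nr1i2, the gene of the xenobiotic receptor PXR, at 0.79. Nearest to Abcb4 were Wipf3 at 0.16, the galactosyltransferase gene B4galt5 at 0.22 and the glycerate kinase gene Glyctk at 0.26. Nearest to Abcb1a were the scaffold gene Shank2 at 0.10, the deubiquitinase gene Otud1 at 0.12 and Glyctk at 0.14. The distance is not scaled, so it grows with the size of a gene's change. Predicted and clone-named genes, small-RNA genes and the members themselves were left out of this ranking.

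No other ABC transporter gene was called. Of 44 listed, 42 were measured, 14 were higher and 28 lower, and limma called none, with or without the replicate block. Abcd2, a peroxisomal fatty acid transporter gene, was the 1 listed gene higher at an unadjusted p under 0.05, where 2.60% of all genes were. None was lower, where 3.06% of all genes were. With the replicate block 2 were higher and 6 lower, where 4.01% of all genes were higher and 5.12% lower. Abcd2 had a log2 change of 0.29 (SE 0.11). Its mean levels, 2.62 with GW4064 and 2.33 with DMSO, lay below the array medians of 3.74 to 3.79. Abca17, also below those medians at 3.27 with GW4064 and 3.01 with DMSO, had 0.26 (SE 0.12). Abca2, of the lysosomal membrane, had -0.23 (SE 0.11). The list's median change was -0.04 and its range -0.27 to 0.29. Among 16 measured P4-ATPase and CDC50 genes of 17, limma called none by either fit, and the median was -0.01. At an unadjusted p under 0.05 none differed without the replicate block, and Atp8a2 alone was lower with it. With the block 5.12% of all genes were lower at that level. The smallest p belonged to Atp11b (-0.18, SE 0.10), Atp10a (-0.17, SE 0.10) and Atp8a2 (-0.19, SE 0.11).

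Genes that place and hold exporters at the canaliculus showed no called change either. Of 22 listed trafficking and polarity genes 19 were measured, 7 higher and 12 lower, with none past limma's threshold by either fit and a median of -0.06. At an unadjusted p under 0.05 none differed without the replicate block, and 2, Vps33b and the E-cadherin gene Cdh1, were lower with it. Of all genes 5.12% were lower at that level with the block. Vps33b, which directs apical membrane traffic, had -0.21 (SE 0.10), Rdx, the radixin gene that anchors MRP2, had -0.18 (SE 0.09) and the tight junction gene Cgn had -0.17 (SE 0.12). All 8 listed genes of other canalicular membrane proteins were measured, 7 were lower, and none passed by either fit, nor at an unadjusted p under 0.05 in either. Slc4a2, the chloride-bicarbonate exchanger gene, had -0.17 (SE 0.10), Ceacam1 -0.16 (SE 0.10) and Anpep, an aminopeptidase gene, -0.16 (SE 0.11). In the phosphatidylcholine and cholesterol supply list 12 of 16 genes were measured, 8 higher and 4 lower, with a median of 0.06 and none past the threshold by either fit. At an unadjusted p under 0.05 none differed without the replicate block, and Scp2 alone was lower with it, against 5.12% of all genes. Npc1l1 had -0.18 (SE 0.10), the sterol carrier gene Scp2 -0.23 (SE 0.15) and the HDL receptor gene Scarb1 0.12 (SE 0.10).

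Among 18 measured regulators of exporter genes, of 19 listed, limma called Nr0b2 and Nr1i2 raised and none lowered, by both fits, and the list's median was -0.02. At an unadjusted p under 0.05, where 2.60% of all genes were higher and 3.06% lower, 3 were higher and 2 lower. With the replicate block 4 were higher, Nfe2l2 being the added one, and 2 lower. Of all genes 4.01% were higher and 5.12% lower with the block. Nr0b2 had a log2 change of 2.37 (SE 0.12), and Nr1i2, whose product is known to activate Abcb1a and Abcc2, had 1.72 (SE 0.20). Nr1h4, the receptor of GW4064, had -0.72 (SE 0.09, adjusted p = 0.0535), with 7.13, 7.08 and 6.94 on the GW4064 arrays, against 7.81, 7.78 and 7.73 on the DMSO arrays. Ppara, a regulator of Abcb4 in mouse liver, had -0.48 (SE 0.12, adjusted p = 0.601). The LXR gene Nr1h3, which drives Abcg5 and Abcg8, had -0.05 (SE 0.11), the CAR gene Nr1i3 had 0.12 (SE 0.19), and the NRF2 gene Nfe2l2 had 0.23 (SE 0.13). No change of Nr1h3, Nr1i3 or Nfe2l2 passed the test adjusted over all genes. Nr1i3 was dim, at 3.82 with GW4064 and 3.71 with DMSO, near the array medians of 3.74 to 3.79. Its pairs differed by 0.50, 0.35 and -0.51 on the log2 scale, so its change is poorly measured.

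**Figure D3:**
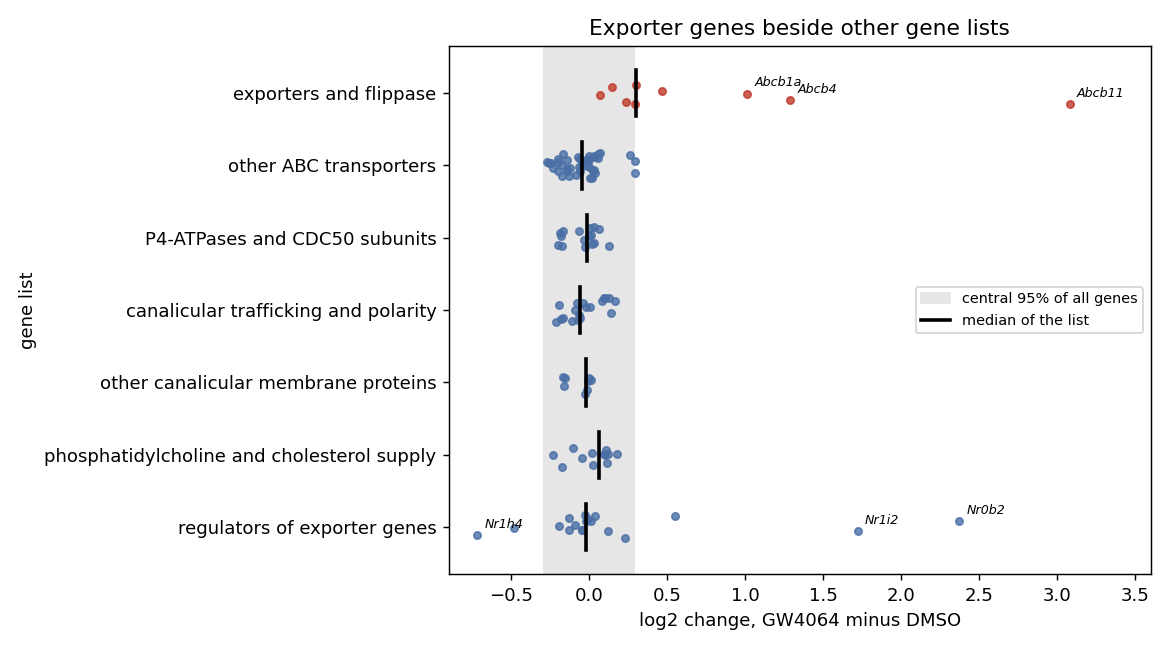
Log2 change, GW4064 minus DMSO (x axis), of each measured gene in 7 lists (y axis, with random vertical offsets). Red points are the 9 exporter and flippase genes, blue points the other lists, black bars list medians, and the grey band the central 95% of all genes, from -0.29 to 0.28. The exporters' median is 0.30, and those of the other lists lie between -0.06 and 0.06.

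**Figure D4:**
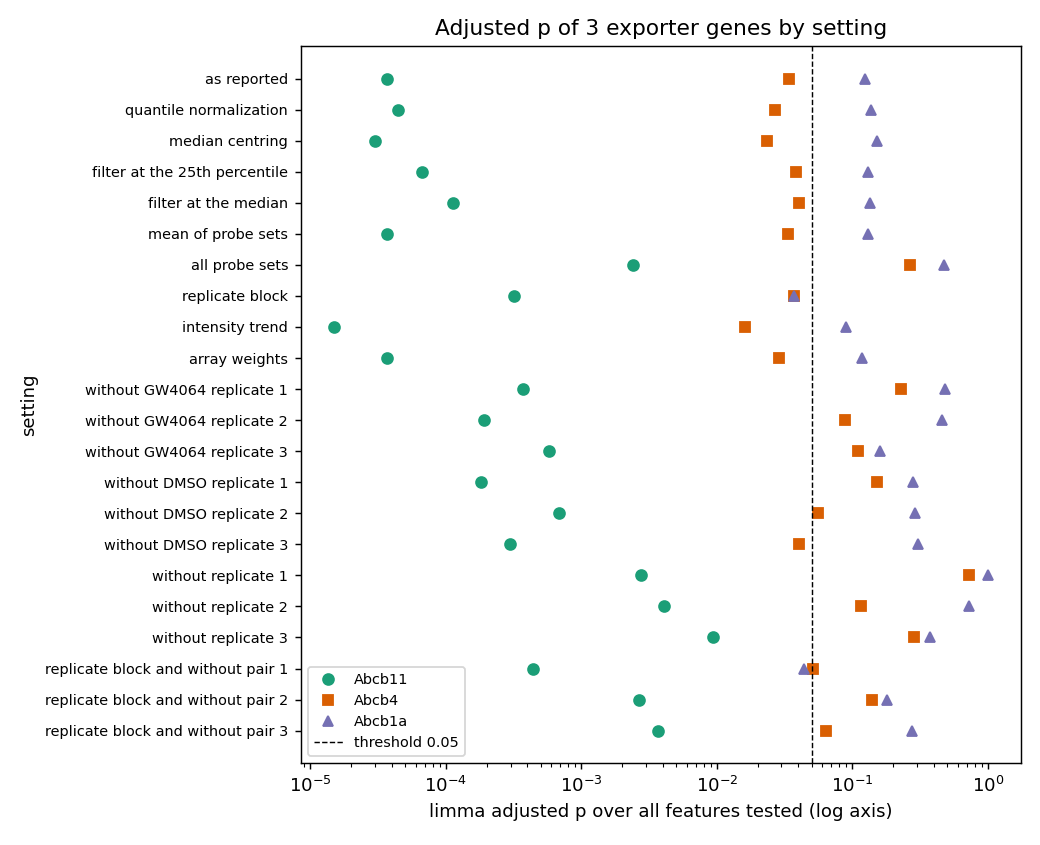
Adjusted p (x axis, log scale) of Abcb11, Abcb4 and Abcb1a under each setting (y axis), with the threshold of 0.05 as a dashed line. Abcb11 stays left of the line in every setting shown, Abcb4 crosses it when most single arrays are left out, and Abcb1a lies left of it in only 2 settings, the replicate block over all pairs and the block without pair 1.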

How the data were processed

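Biotin-labelled total RNA was hybridised to MoGene-2_0-st arrays, per the labels' protocols. The deposited log2 intensities are RMA values, and the submitters' processing notes name RMA and Partek, with no version of either. Their log base is not stated and was judged from how far the values extend. The genome build of the annotation is not given in the sources used here. The platform annotation gives 23521 of 41345 probe sets exactly 1 symbol, 1814 several and 16010 none. The probe set with the highest mean per symbol was kept, and 21994 of 22180 symbols matched RefSeq by Entrez ID.

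The 3 GW4064 and 3 DMSO arrays were compared with limma 3.58.1 (lmFit, eBayes, two-sided) in R 4.3.3, without a block or a filter, and p was adjusted by Benjamini-Hochberg over all genes at a threshold of 0.05. Intervals and SE come from this fit unless the block is named. Array number limits precision, and p-values set each change against the spread between these arrays, moderated over all genes. Without the block this spread includes shifts between replicate numbers. Deviations from group means correlated at 0.26, 0.34 and 0.45 in same-numbered arrays, so the titles' numbers were taken as pairs. All other correlations were below 0, but deviations within a group sum to 0, so these are no separate support for the pairs. Of the members only Abcb1a changed its call with the block, and blocked adjusted p is also given for Abcg5, Abcg8, Abcc2 and Abcb1b. The fit was tested on simulated data. Within-array differences of 4 gene pairs were tested by exact permutation. Promoter sequences come from RefSeq (GRCm38.p6). The genes named are the 9 members, 7 fixed regulators, Tmem30a and Tmem30b, up to 3 genes per list with the smallest p, and the 3 nearest in pattern to Abcb11, Abcb4 and Abcb1a. Hnf4a, Cdh1 and the cell type markers given by name were named after their values were seen. Members and lists were chosen with earlier results of these data known. Alternatives were other scalings, filters on dim genes, other probe set rules, the replicate block, an intensity trend, array weights and left-out arrays or pairs.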

Additional observations from a re-analysis of the deposited data

How the results depend on the processing

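Of the 9 genes, Abcb11 kept its direction and its call in all 18 alternatives. The filters, probe set rules, replicate block and intensity trend leave each member's log2 change as it was. Under those settings only the call could differ. Abcb4 kept its direction and was called in 9 of 18, with log2 changes of 1.13 to 1.43. It lost the call in 5 of 6 fits without a single array and in all 3 without a pair. With all 41345 probe sets tested it also lost the call (limma adjusted p = 0.267). In that fit more features entered the adjustment and the SE was 0.161, against 0.149 in the reported fit. Abcb1a was called with the replicate block alone of the 18, and its changes ran from 0.86 to 1.13. Only Abcg2 turned sign, with changes of -0.085 to 0.23 when arrays or pairs were left out.

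The number of members raised was 2, with 3 under the replicate block, 1 with all probe sets and 1 to 2 with arrays or pairs left out. Over all genes 11 were raised, with 16 under the replicate block, 2 with all probe sets and 2 to 5 with arrays or pairs left out. None was lowered, against 1 with genes under the median level left out, 2 with the replicate block, 1 with the intensity trend and 0 to 1 with arrays or pairs left out. With the replicate block and without pair 1, 2 or 3, chosen after seeing the data, 3 genes were lowered without pair 1, the raised genes numbered 6 without pair 2 and 4 without pair 3, and only 1 member was raised without either. Abcb4 then had an adjusted p of 0.0515, 0.140 and 0.0635 without pairs 1, 2 and 3. Abcg2 was at -0.00344 with the replicate block and without pair 2. The causes of these shifts were not tested. Abcc2, Abcg5, Abcg8, Abcg2, Abcb1b and Atp8b1 passed in none of the 18.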
